A study of Homo sapiens with 2 samples.

Results

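The regions described here are the 363 ChIP peaks that touched protein-coding exons and held no seed of *uPA* gRNA T2 at their summit, out of 7748 deposited peaks on chromosomes 1 to 22 and X. A peak was taken when it overlapped by at least 1 bp the coding sequence of a protein-coding GENCODE transcript on hg19. Its summit, the position with the most tags, had to lie more than 2 kb from every transcription start of such a transcript and outside any protein-coding gene of 300 kb or longer. No site within 70 bp of the summit could match the last 5 bases of T2 followed by NGG, the protospacer adjacent motif (PAM) that Cas9 reads. Of the 7748 peaks, 513 overlapped coding sequence, 462 of these were also far enough from starts, 427 also lay outside long genes, and 64 of the 427 held the T2 seed. The rule used no tag count and no enrichment. The 363 peaks are called coding peaks without a T2 seed. They are set beside the 64 coding peaks with the seed and beside 1894 peaks without the seed that lay in introns only, under the same limits on starts and gene length.

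The study tested how specifically a catalytically dead Cas9 fused to a blue fluorescent protein and a DNA methyltransferase binds and methylates the genome. HEK293T cells, an established line derived from human embryonic kidney, received 500 ng of plasmid for the fusion protein, dCas9-BFP-DNMT3A, and 500 ng in all for the *uPA* gRNAs T1 to T5, and chromatin was recovered with an antibody against the HA tag of the fusion protein. The labels hold 1 such ChIP sample and 1 input sample, so there was no replicate, no cell without the fusion protein and no cell without gRNA to compare with. The fusion protein carries the catalytic domain of human DNMT3A and is expressed from a PGK promoter on a transiently transfected plasmid.

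A gRNA leads Cas9 to DNA by pairing with a protospacer that lies next to a PAM. The bases of the gRNA nearest to the PAM, its seed, pair first, and binding of dCas9 at sites that match little more than the seed is well known. DNMT3A is a *de novo* DNA methyltransferase whose catalytic domain lies at its C-terminal end, and the *uPA* gene, also named PLAU, encodes the urokinase plasminogen activator. Coding exons are short islands between much longer introns, so a peak that is called over a stretch far longer than an exon can touch an exon and still have its summit in the intron beside it.

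The 5 gRNAs are shown first because their seeds, in capitals, define what the summits of these peaks lack (T2) or could still hold (the others). T2 is made of G and A runs, with C at few positions.

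T1: gtgagcgttgcggaaGCACG
T2: gagccgggcgggagaGGGAG
T3: gagtcaaggcgccccGTCCC
T4: gcccggggatctcagGACCG
T5: gggacaggtggacccTGGCC

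The bases within 70 bp of the summit follow for the 6 peaks with the highest fold enrichment that hold no untranslated region there. They are read from the plus strand of hg19 (GRCh37), with coding bases in capitals and all other bases in lower case. The 3 from DNMT3A show summits inside an exon, the one from MUC3A shows a summit just past an exon end, and those from FIGLA and OR5BS1P show summits with no coding base at all.

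DNMT3A, coding exon 15, chr2:25466737-25466877: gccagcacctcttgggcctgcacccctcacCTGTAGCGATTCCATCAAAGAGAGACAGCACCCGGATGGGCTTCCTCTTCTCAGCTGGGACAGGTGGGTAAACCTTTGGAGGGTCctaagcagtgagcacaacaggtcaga
DNMT3A, coding exon 19, chr2:25461971-25462111: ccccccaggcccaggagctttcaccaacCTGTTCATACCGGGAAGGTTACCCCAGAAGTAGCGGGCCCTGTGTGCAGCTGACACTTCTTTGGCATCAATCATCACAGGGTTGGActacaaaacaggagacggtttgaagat
DNMT3A, coding exon 16, chr2:25464454-25464594: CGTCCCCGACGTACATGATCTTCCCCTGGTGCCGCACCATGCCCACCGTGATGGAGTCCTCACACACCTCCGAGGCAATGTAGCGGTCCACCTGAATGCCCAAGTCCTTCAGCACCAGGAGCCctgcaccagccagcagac
MUC3A, chr7:100609853-100609993: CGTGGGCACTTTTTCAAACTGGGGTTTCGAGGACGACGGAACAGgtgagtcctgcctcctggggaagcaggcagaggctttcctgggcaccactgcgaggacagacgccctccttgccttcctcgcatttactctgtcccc
FIGLA, chr2:71014585-71014725: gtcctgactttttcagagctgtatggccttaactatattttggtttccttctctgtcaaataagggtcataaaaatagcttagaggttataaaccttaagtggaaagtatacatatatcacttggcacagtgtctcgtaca
OR5BS1P, chr12:48956909-48957049: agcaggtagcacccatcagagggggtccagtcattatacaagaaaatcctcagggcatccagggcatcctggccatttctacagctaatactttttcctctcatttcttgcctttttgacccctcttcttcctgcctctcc

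The list was called from 62723055 ChIP tags and 62723050 input tags of 49 bp. Duplicate removal left 44934315 of the former and 46375481 of the latter. Peaks of 1 sample are not replicates of a condition, so each Fisher's exact test below compares shares of peaks within this list, and each interval covers counting error only.

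Most coding peaks without a T2 seed were weak. Their fold enrichment, which MACS computes as ChIP tags over a local background estimated from the input, ranged from 2.36 to 8.89 with a median of 3.59, against a median of 3.86 in the list. The middle 50% of the 363 peaks lay between 3.15 and 4.11. Their tag counts ranged from 21 to 505 with a median of 37, against 34 in the list. A MACS *P* of 1e-05 or smaller was reached by 37 of the 363 (10.2%, 95% Wilson interval 7.49 to 13.7), beside a background of 15.8% of the 7748 peaks and 9.36% of the 6412 peaks of any location without the seed. A fold enrichment of 4 or more was reached by 104 (28.7%, interval 24.2 to 33.5), beside 40.0% of the list and 30.7% of the peaks without the seed. Both shares stood near those of the peaks without the seed. The false discovery rate (FDR) that MACS estimates by exchanging ChIP and input was below 100% for 40 of the 363 peaks (11.0%), for 12.1% of the intron-only peaks, 43.8% of the coding peaks with the seed and 18.3% of the list. Its lowest value was 16.1% among the 363 peaks and 13.7% in the list, so no peak of the list was at or below 5%.

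The gap to coding peaks with the seed was wide. The 64 coding peaks with the T2 seed had a median fold enrichment of 5.14 (3.09 to 9.61). Fold enrichment above the list median was found for 135 of the 363 (37.2%) and for 58 of the 64 (90.6%, two-sided Fisher's exact test, *P* = 2.18e-16, adjusted 1.53e-15 by the Benjamini-Hochberg method over 7 tests). Against intron-only peaks without the seed the difference was small: 808 of the 1894 (42.7%, interval 40.5 to 44.9) were above that median, with a median fold of 3.67 (Fisher's exact *P* = 0.0553, adjusted 0.0968). Without the 5 peaks in DNMT3A described below, 36.3% of 358 were above it (Fisher's exact test, adjusted *P* = 0.0461), so the side of the 0.05 threshold turned on these 5 peaks.

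**Figure D1:**
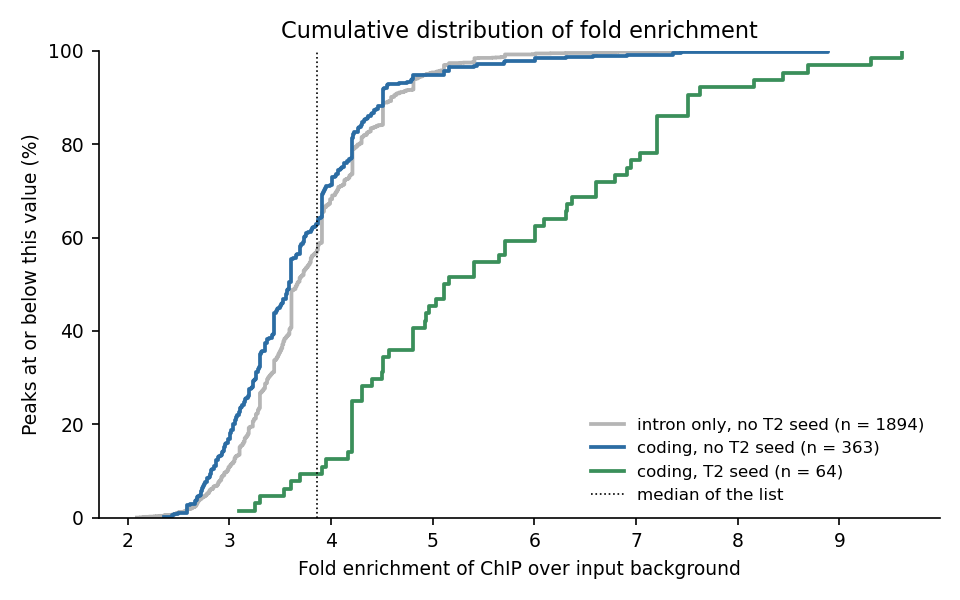
Share of peaks (%) at or below each fold enrichment of ChIP over input background, for 363 coding peaks without a T2 seed (blue), 64 coding peaks with one (green) and 1894 intron-only peaks without one (grey); the dotted line is the median of the list, 3.86. The blue and grey lines run close together, and the green line lies to the right with a median of 5.14.

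Tag counts went the other way. More of the coding peaks without the seed than of the intron-only peaks held more tags than the list median, 57.9% (interval 52.7 to 62.8) against 47.6% (45.4 to 49.9, Fisher's exact *P* = 0.000376, adjusted 0.000877). They were also longer, with a median of 999 bp (517 to 5718) against 910 bp. A longer peak meets an exon more often, so length and tag count are not independent of the rule. Per kb of peak the medians were 36.8 and 36.7 ChIP tags. The call on tag counts was lost among peaks with *P* at or below 1e-05, at 89.2% against 88.8% (adjusted *P* = 1, Fisher's exact test), and for the 51 peaks with a coding summit, at 56.9% against 47.6% (adjusted *P* = 0.285, Fisher's exact test). MACS computes *P* from tag counts and the local background, so the limit on *P* itself selects on tag count. Most peaks of both groups then exceeded the median, and that setting cannot show whether the difference holds.

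Among all peaks, those in DNMT3A stood apart. DNMT3A (ENSG00000119772, chr2:25450724-25565459, minus strand) held 5 of the 363 peaks, the most of any gene. Transcript ENST00000321117 has 22 coding exons and 912 codons, and the 5 peaks lay within 10447 bp at its 3′ end (chr2:25456782-25467228). The peak at chr2:25466141-25467228, over coding exons 14 and 15, held 104 tags at a fold enrichment of 8.89, the highest of the 363. The peak at chr2:25462714-25465088, over coding exons 16 to 18, held 505 tags at a fold of 7.36 and ranked 1 of 7748 by tag count and by *P*. These 2 neighbours together touched 5 exons.

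Downstream, the peak at chr2:25461553-25462584 over coding exon 19 held 107 tags (fold 7.44). The peak at chr2:25458397-25459094 over coding exon 21 held 152 tags (fold 4.67), and the peak at chr2:25456782-25457749 over coding exon 22 held 200 tags (fold 6.58). All 5 summits lay inside coding exons. Per kb they held 95.6, 213, 104, 218 and 207 tags in the order of the transcript, which are the 5 highest values of the 7748 peaks. Outside them the highest value in the list was 78.9 tags per kb, and among the other 358 coding peaks without the seed it was 56.9, in TARBP1 (named after its value was seen), which encodes an RNA-binding protein. The 2 sets of values did not overlap.

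The exons under these peaks formed 1 end of the coding sequence. Coding exons 14 to 19, 21 and 22 lay wholly inside peaks, and 999 of the 1069 coding bases from exon 14 on (93.5%) were covered. Coding exon 20, of 70 bp, lay between peaks. None of the 1667 bases of coding exons 1 to 13 was in a peak. The covered exons run from codon 556 to codon 912, the C-terminal end of the protein, which holds the catalytic domain. One more peak of the list, with 28 tags at a fold of 4.51 and 34.1 tags per kb, lay in an intron near the 5′ end of the gene (chr2:25547209-25548029) and touched no coding base.

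The transfected plasmid carries the coding sequence of the DNMT3A catalytic domain, and the sequence of the plasmid was not used here. Tags from the plasmid and tags from the chromosomal gene cannot be told apart in this list. The FDR of the 5 peaks was 16.3%, 100%, 42.4%, 16.1% and 72.7% in the order of the transcript. The peak with the most tags was the one with an FDR of 100%. Together the 5 peaks held 1068 of the 17209 tags of the 363 peaks.

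**Figure D2:**
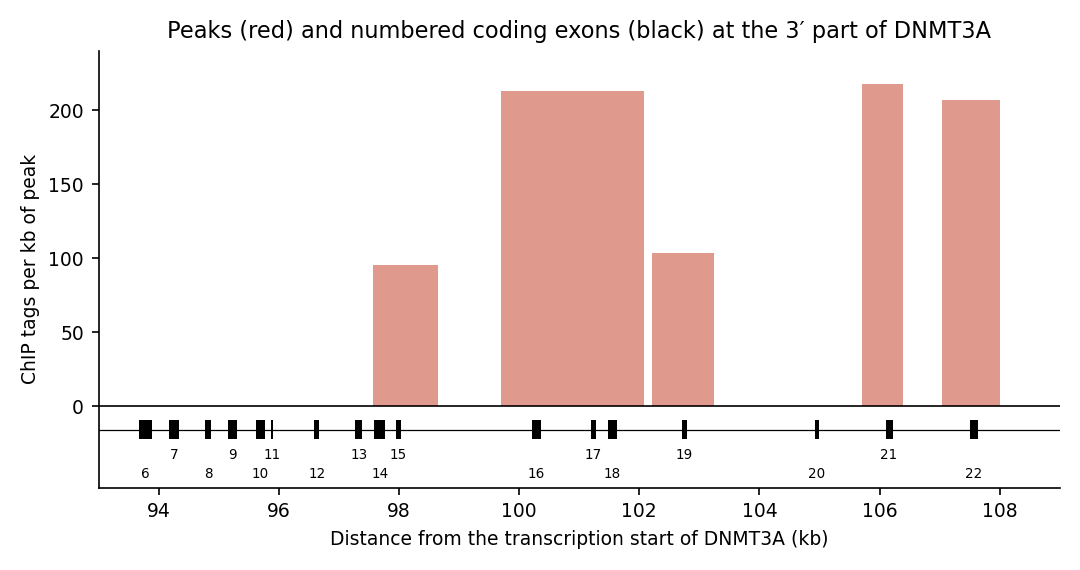
The 5 peaks over the 3′ part of DNMT3A (red bars, height in ChIP tags per kb of peak, width as called) above its coding exons (black, numbered), by distance in kb from the transcription start. Peaks of 95.6 to 218 tags per kb stand over exons 14 to 19, 21 and 22, and no peak stands over exons 6 to 13 or 20.

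**Figure D3:**
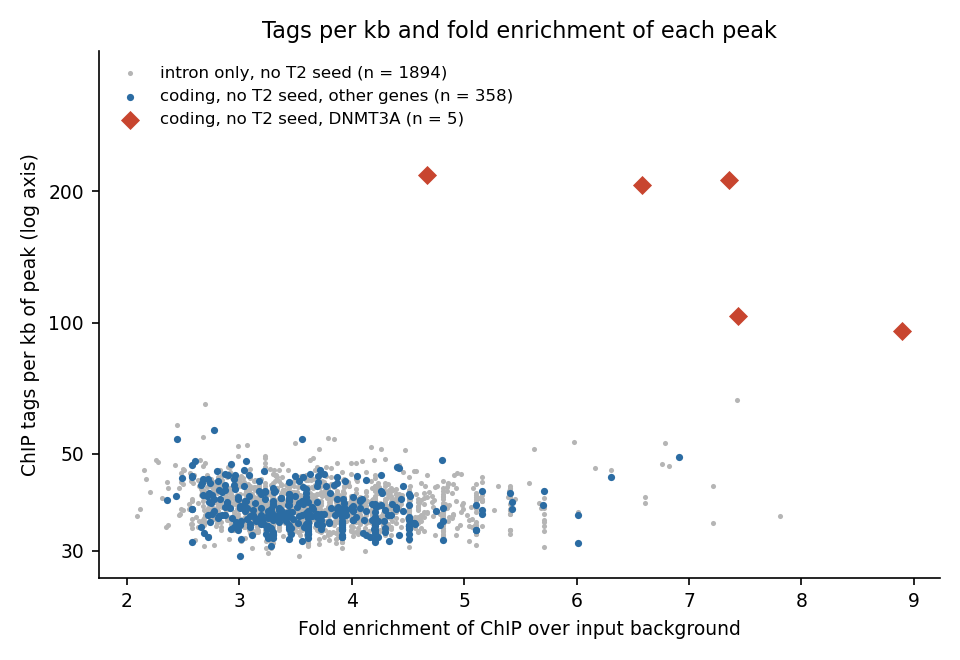
ChIP tags per kb of peak (log axis) against fold enrichment for 1894 intron-only peaks without a T2 seed (grey), 358 coding peaks without one outside DNMT3A (blue) and the 5 in DNMT3A (red diamonds). The red points lie between 95.6 and 218 tags per kb and the blue points between 29.2 and 56.9.

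After DNMT3A, the peaks with the highest fold enrichment lay in genes of many kinds. MUC3A, which encodes a membrane mucin, had a fold of 6.91 with 29 tags. FIGLA, a transcription factor of the oocyte, had 6.31 with 41 tags. The olfactory receptor locus OR5BS1P and RASGRF1, a guanine nucleotide exchange factor for Ras, both had 6.01, with 34 and 27 tags. PRC1, a microtubule-bundling protein of cytokinesis, had 5.71 with 41 tags, and SALL4, a zinc finger factor of stem cells, had 5.7 with 36 tags.

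The next in order was CFAP141, a cilia-associated protein, at 5.43 with 59 tags. AGO1, an Argonaute protein of the RNA silencing complex, had the same fold with 31 tags. TSC1, a brake on mTOR signaling, had 5.41 with 33 tags and was the highest outside DNMT3A with its summit inside a coding exon. GSTK1 (a glutathione transferase), IRAK3 (a regulator of Toll-like receptor signaling) and TMEM63A (a mechanosensitive ion channel) each had 5.16. LRRIQ4, TDRD12 (a Tudor domain protein) and PDX1 (a pancreatic transcription factor) each had 5.11, and the receptor gene CMKLR2 closed the 20 highest at 4.81. Outside DNMT3A none of the 20 held more than 59 tags.

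The peaks with the most tags were mostly others. After the 505 tags in DNMT3A came ELP2, a subunit of the Elongator complex, with 254 tags over 5718 bp and 4 coding exons. UBE2U, a ubiquitin-conjugating enzyme, held 240 tags over 5075 bp, and LYST, the lysosomal trafficking regulator, held 221 over 4653 bp. Their fold enrichments were 2.58, 2.58 and 2.93, all below the median of the 363 peaks, and they held 44.4, 47.3 and 47.5 tags per kb. The fifth was the DNMT3A peak with 200 tags.

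A T2 seed farther from the summit was present in 61 of the 363 peaks (16.8%, interval 13.3 to 21.0) and in 355 of the 1894 intron-only peaks (18.7%, interval 17.0 to 20.6). Of the 61, 25 (41.0%) had a fold enrichment of 4 or more, against 79 of the 302 coding peaks without any T2 seed (26.2%). In intron-only peaks the same shares were 36.6% and 30.7%. This split was made after earlier values were seen and was not tested, and the median folds were 3.61 and 3.59. In 8 peaks the centre of the nearest seed site lay within 100 bp of the summit, and their median fold was 4.81 (3.44 to 6.91). Of the 20 highest peaks by fold, 8 held a T2 seed elsewhere in the peak, among them 4 in which it lay within 100 bp.

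The nearest site of these 4 is shown because it lay only just outside the distance that the rule allowed. Each is written as the 20 bases aligned to T2 followed by the PAM, with bases equal to T2 and the GG of the PAM in capitals.

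MUC3A, chr7:100609993-100610015, minus strand: agGgaGGGgacGgaAGGGAGaGG
OR5BS1P, chr12:48957043-48957065, minus strand: tAagtaaaaGGGAGAGGGAGaGG
RASGRF1, chr15:79323953-79323975, plus strand: agaggGaGaGGGAGAGGGAGaGG
TDRD12, chr19:33234257-33234279, minus strand: agtggGGGaGGGgagGGGAGgGG

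These sites were 73.5, 67.5, 81.5 and 77.5 bp from the summit. They had 9, 8, 7 and 9 mismatches to T2, and an unbroken match from the PAM of 6, 11, 11 and 5 bases. The peaks held 4, 3, 5 and 5 seed sites. The highest of the 20 outside DNMT3A with no T2 seed anywhere in the peak were FIGLA, SALL4, AGO1 and TSC1.

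Full-length likeness to T2 at the summits was low. The best aligned site next to an NGG in the same window had a median of 13 mismatches of 20 bases, the same as in intron-only peaks, against 7 in coding peaks with the seed. No peak had fewer than 7 (0 of 363, upper Wilson bound 1.05%), while 3 of the intron-only peaks had 3 or 4. The rule itself removed the sites with a full seed, so these counts describe what it left. The 4 sites with 7 mismatches are shown because they are the closest matches left, in the same notation.

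CFAP141, chr1:154172291-154172313, plus strand: GgGgacccCGGGAGAGaGAGaGG
GALNT15, chr3:16273264-16273286, minus strand: agagaGGGaGGGAGAGaGAGaGG
LIMK2, chr22:31654751-31654773, plus strand: GAataGGctGGcAGAGaGAGgGG
PTPRC, chr1:198720582-198720604, minus strand: GAGatttagGGGAGAGaGAGgGG

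All 4 had 1 substitution in the seed, G17A, counted from 1 at the 5′ end of T2 with the base of T2 first. They lay 3 to 36 bp from the summit and none touched a coding base. The peaks had folds of 5.43, 4.46, 4.32 and 3.94. CFAP141 is among the 20 highest, and the other 3 genes, named here for their sites, encode a glycosyltransferase (GALNT15), an actin-regulating kinase (LIMK2) and the leukocyte phosphatase CD45 (PTPRC). Of the 15 seeds that differ from that of T2 at 1 base, the one with G17A was also the most frequent at these summits, in 11 of 363 (3.03%), against 42 of 1894 intron-only peaks (2.22%). The next were G20A with 9 and G18A with 8 peaks. These counts were made after the 4 sites were seen and were not tested.

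For the seeds of the other 4 gRNAs no difference from intron-only peaks was detected. At least 1 was found within 70 bp of 13 of the 363 summits (3.58%, interval 2.10 to 6.03) and of 67 of the 1894 (3.54%, interval 2.80 to 4.47, Fisher's exact *P* = 1, adjusted 1). T3 accounted for 6 peaks, T5 for 4, and T1 and T4 for 2 each. The T2 seed followed by NAG, a weaker PAM of Cas9, was found in 12 of 363 (3.31%, interval 1.90 to 5.69), in 48 of 1894 intron-only peaks (2.53%) and in 4.31% of the list.

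Coding bases made up 13.7% of the 427431 bases of the 363 peaks, and 51 summits (14.0%, interval 10.9 to 18.0) lay in the coding sequence of some transcript. Outside DNMT3A these values were 13.6% and 46 of 358 (12.8%, interval 9.77 to 16.7). Among the 37 peaks with *P* at or below 1e-05, 10 summits were coding (27.0%, interval 15.4 to 43.0), and without the 5 in DNMT3A 5 of 32 were (15.6%, interval 6.86 to 31.8). In the transcript used for each peak, 293 summits (80.7%) lay in an intron, 50 in a coding exon and 18 in an untranslated region, and 2 lay outside it. The median distance from summit to the nearest coding base of the transcript used was 192 bp, and coding bases of other transcripts could lie nearer. The summits of coding peaks with the seed fell in coding sequence in 4 of 64 cases (6.25%, interval 2.46 to 15.0), an interval that overlaps the one above.

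The exons reached were mostly short. The longest coding exon under a peak had a median of 132 bp, and in 10 peaks it was 1000 bp or longer. A peak covered a median of 134 coding bases, from 3 in PFKM (phosphofructokinase of muscle) upwards. It touched 1 coding exon in 287 cases, 2 in 65, 3 in 9 and 4 in 2. The first coding exon was among them in 15 peaks and the last in 49, with 3 peaks over genes of a single coding exon counted in both. In 7 peaks the coding sequence of more than 1 GENCODE gene entry was touched. Such entries were not always distinct genes, as with the 2 entries that carry the symbol MATR3.

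The bases under these peaks were poor in GC. Within 70 bp of the summit the median GC content was 38.3% (22.7 to 73.0), against 39.0% in intron-only peaks and 40.4% in the list. The coding bases of the 363 peaks were 45.3% GC and their other bases 38.8%, while the coding sequence that the rule could reach was 51.2% GC. In 310 of the 363 peaks the coding bases were richer in GC than the rest of the peak. The rule also removed summits with the G-rich T2 seed, and this comparison was not tested.

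GC content above the list median at the summit was found for 140 of the 363 (38.6%, interval 33.7 to 43.7) and 788 of the 1894 intron-only peaks (41.6%, interval 39.4 to 43.8, Fisher's exact *P* = 0.295, adjusted 0.344). At least 1 CpG, the dinucleotide that DNMT3A methylates, lay within 70 bp of 223 of the 363 summits (61.4%, interval 56.3 to 66.3) and of 1074 of the 1894 (56.7%, interval 54.5 to 58.9, *P* = 0.105, adjusted 0.146 by Fisher's exact test). For the 51 peaks with a coding summit the share with a CpG was 84.3%, against the same 56.7% (Fisher's exact test, adjusted *P* = 0.000303). These summits were chosen to be coding, and coding bases of the 363 peaks were richer in GC than their other bases (45.3% against 38.8%). The difference cannot be read apart from that choice, and no baseline from other coding sequence was taken. In coding peaks with the T2 seed, GC content above the list median was found for 56 of 64 (87.5%, Fisher's exact *P* = 9.04e-14, adjusted 3.17e-13). The seed and its PAM are themselves rich in G, so this difference is tied to the rule.

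The 363 peaks were spread over 350 genes. Counted by gene symbol, 333 held 1 peak and 16 held 2, and DNMT3A alone held more. MATR3, among the 16, was counted as 2 from 1 peak, because 2 gene entries carry that symbol. The 2 peaks in CLCN1, a chloride channel of muscle, lay 82 bp apart with 79 and 67 tags. In YARS1, a tyrosyl-tRNA synthetase, they lay 3188 bp apart. Another peak of the list lay within 10 kb of 37 of the 363 (10.2%, interval 7.49 to 13.7), against 10.5% of the list.

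The list of DNA methylation genes was set with earlier results of these data known. Its peaks all lay in DNMT3A, whose catalytic domain the transfected plasmid encodes, so they do not describe the group. The 14 genes of this list held 0.155% of the coding bases that the rule could reach and 1.38% of the peaks, all 5 in DNMT3A, and no other enzyme or reader of DNA methylation on the list held one. Of the loci named in the study (PLAU, TGFBR3, GAPDH, SH2D3C and FAM221A), TGFBR3 held 1 peak, over coding exon 6 (chr1:92192316-92193698, 60 tags, fold 3.18), with its summit in an intron and no T2 seed in the peak. TGFBR3 encodes the transforming growth factor beta receptor 3. The gRNAs of this sample were those of *uPA*, whose own gene held no coding peak without a T2 seed. Of the 5 loci named, only 4 had coding bases that the rule could reach. None of these lists was tested.

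The lists that follow were drawn by the first letters of gene symbols, so their counts leave out genes of the same kind with other symbols. Chromatin regulators with listed symbols held 5 peaks (1.38% of the peaks and 1.13% of reachable coding bases). They lay in SETDB1, a histone methyltransferase (fold 3.91), CHD6 (3.91), CHD1 (3.77), HDAC1, a histone deacetylase (3.57), and CHD9 (2.58). The 3 CHD genes encode chromatin remodelers. Chromatin regulators outside this list also held peaks, among them EZH1 (4.01), PBRM1 (2 peaks, 3.35 each) and BAZ1B (3.3). C2H2 zinc finger proteins are the largest family of human transcription factors. Those with symbols beginning ZNF, ZFP, ZBTB, ZSCAN or ZKSCAN held 4 peaks (1.10%) on 4.07% of coding bases. ZNF318 was the highest of these at 4.42, and SALL4 (5.7) is outside the list by its symbol. Solute carriers held 6 (1.65% on 1.98%), among them SLC7A7, an amino acid transporter (4.30), and SLC44A1, a choline transporter (3.65). Collagens held 3 (0.826% on 0.637%), with the highest in COL15A1 (4.21).

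Cytoskeletal motors held 3 (0.826% on 1.60%), with the highest in KIF11, a mitotic kinesin (4.26). Ion channels with symbols beginning KCN, SCN, CACNA, TRP, HCN, CLCN, RYR or ITPR held 2 (0.551% on 1.19%), both in CLCN1. The channel gene TMEM63A (5.16) is outside this list by its symbol. Olfactory receptors held 2 (0.551% on 0.387%), OR5BS1P and OR7A10. Mucins held 1 (0.275% on 0.501%), MUC3A, and ribosomal proteins 1 (0.275% on 0.158%), RPL15, with a fold of 4.21. The cadherin superfamily held 0 on 0.755% of reachable coding bases and keratins 0 on 0.189%. Metalloproteases with symbols beginning ADAM or MMP held 0 on 0.496%. TLL2, a metalloprotease outside that list by its symbol, held a peak with a fold of 4.21. Counts of 0 to 6 give wide intervals, and apart from DNMT3A no gene of these lists held more than 2 peaks.

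The number of peaks per coding base varied between chromosomes. On chromosome 1 there were 70 peaks, or 26.4 per Mb of reachable coding sequence (95% exact Poisson interval 20.6 to 33.3), and on chromosome 10 there were 25, or 24.1 (15.6 to 35.6). The rate over all chromosomes was 14.3. Chromosome 19, the gene-densest, held 2 peaks, in TDRD12 and OR7A10, on 1.81 Mb, a rate of 1.10 (0.134 to 3.99). Chromosome 1 held 19.3% of these peaks and 13.4% of the list, chromosome 10 held 6.89% and 6.48%, and chromosome 19 held 0.551% and 0.813%, so chromosome 10 was near its share of the list and chromosome 19 was low in the whole list too. Copy number of the chromosomes in these cells was not tested.

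The peaks nearest to the limits of the rule, on either side, were these. The summit nearest to a transcription start was that of HEY2, at 2095 bp (fold 3.42, 41 tags), and the nearest that was left out was that of GPR84, at 1873 bp (fold 3.61, 24 tags). The longest gene kept was NCOA2, of 294027 bp (fold 2.97, 34 tags), and the shortest left out was KMT2C, of 301723 bp (fold 2.58, 78 tags). The seed site farthest from a summit that excluded a peak was centred at 63.5 bp in NKTR (fold 3.54, 44 tags), and the nearest that did not was the one at 67.5 bp in OR5BS1P.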

How the data were processed

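Single-end reads had been mapped by the authors to hg19 with SOAP2, unique reads sampled to equal depth, and peaks called with MACS 1.4.2 against the input at *P* 0.001, with a band width of 300 bp, fragments of 200 bp and at most 1 tag per position. The deposited tag counts are raw numbers of ChIP tags in each peak. Fold enrichment, as deposited, is a ratio of ChIP tags to the local input background. The deposited score is the log10 of *P* multiplied by -10. The deposited FDR is in percent. Positions are other deposited columns, in bp counted from 1. The methods speak of triplicates and of removing peaks in repeats, which 1 list does not show.

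The 9 peaks on chromosome Y or other contigs were not used. Gene features came from GENCODE 44 mapped to GRCh37, and bases from that genome with pysam 0.24.0 in Python 3.11.15. gRNA sequences came from the supplement. A gene counted as long when it held the summit, and a seed site counted when all 8 bases lay within 70 bp of the summit. Each peak was read in the transcript that Ensembl marks as canonical if its coding exons touched the peak. Otherwise the transcript with the most coding bases in the peak was used. Reachable coding sequence is coding sequence more than 2 kb from starts and outside long genes. Above-median shares use medians of the 7748 peaks, and two-sided Fisher's exact tests (scipy 1.17.1) were adjusted over 7 tests. Scripts were tested on simulated data. The 363 peaks, gene lists and tests were chosen with earlier results of these data known.

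Genes named are those under the 20 peaks with the highest fold enrichment, the 5 with the most tags and genes with 3 or more peaks, all members of the lists on DNA methylation and study loci, and up to 4 genes of other lists by fold. Genes at the limits of the rule (HEY2, GPR84, NCOA2, KMT2C, NKTR, PFKM), TARBP1, YARS1, GALNT15, LIMK2 and PTPRC were named after their values were seen. The same holds for EZH1, PBRM1, BAZ1B, TLL2 and MATR3. One gene that this rule would name is not reported here. Sequences are of the 6 highest by fold without untranslated bases. Alternatives were *P* at or below 1e-05, summit inside coding sequence, a seed site counted from 1 base, no seed in the whole peak, no chromosome 1, other comparison peaks and bases of the whole peak. Leaving out DNMT3A, also together with *P* at or below 1e-05 for coding summits, was added after the data were seen.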

Additional observations from a re-analysis of the deposited data

How the results depend on the processing

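Differences below are in percentage points, coding peaks without a T2 seed less the other group, for shares above the list median or with the feature. With *P* at or below 1e-05, 37 peaks remained, the difference in tag count from intron-only peaks was 0.359 (adjusted *P* = 1 by Fisher's exact test), that in GC content was 3.48 and turned sign, that in other seeds was -2.08 and turned sign, the difference in fold enrichment from coding peaks with the seed was -27.1 (adjusted *P* = 0.0590), and 27.0% of summits were coding. With the summit inside coding sequence, 51 peaks remained and the differences by Fisher's exact test were 9.24 for tag count (adjusted *P* = 0.285), 17.2 for GC content (turned sign, adjusted *P* = 0.0719), 27.6 for CpG (adjusted *P* = 0.000303), -3.54 for other seeds (turned sign), and, against 4 peaks with the seed, -41.7 for fold enrichment and -41.2 for GC content (adjusted *P* = 0.285 and 0.334). The near-zero difference in other seeds, 0.0438, also turned sign with seed sites counted from 1 base (-0.164), with no T2 seed in the whole peak (-0.659) and without chromosome 1 (-0.178). Without the 5 DNMT3A peaks the difference in fold enrichment from intron-only peaks was -6.35 (Fisher's exact test, adjusted *P* = 0.0461), against -5.47. MACS computes *P* from tag counts and the local background, so the limit on *P* also selects on tag count and fold enrichment. Asking for a coding summit also selects for bases richer in GC. In both settings fewer coding peaks without a T2 seed remained, and causes of the lost calls were not tested. The other 37 differences kept their direction and side of the threshold, and the other 8 counts and shares, which had no test, stayed within 1.5 times the count or within the interval of the share. No paired analysis was possible because there was 1 ChIP sample. The list gives no input tag counts, so enrichment per peak has no error of its own.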
